A study of Mus musculus with 16 samples.

Results

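The liver transcriptome of mice without cryptochromes was compared with that of wild-type mice after oxaliplatin dosing at circadian time 16 (CT16), across all measured genes. The comparison rests on 8 of the 16 libraries of the series: the 4 count columns named for wild type at CT16 (libraries 5 to 8) and the 4 named for the double knockout at CT16 (libraries 11 to 14). Because library 8 stood apart from its group, counts of genes called at CT16 were also made without it. Other counts include it unless stated. Wild-type (WT) mice were C57BL/6J. The double knockout mice (CryDKO) carry the genotype Cry1-/- Cry2-/-, were bred from heterozygotes on that background and lack both genes in every tissue. All were males of 12 to 16 weeks. They had been synchronised for 3 weeks to 12 h of light and 12 h of darkness and were in constant darkness from 3 days before the drug. Both genotypes received intraperitoneal oxaliplatin, a platinum compound that crosslinks DNA, at 12 mg/kg. The series text speaks of dosing on 3 days in a row in 1 place and of a single dose in another, and the time of liver collection is not given in the sources used here. No untreated group was analysed here, so each difference is one between genotypes in drug-treated mice. The remaining 8 libraries, WT and CryDKO mice dosed at CT8, served to set the shared spread and to ask where CT16 differed.

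The mammalian clock is a feedback loop. The activators BMAL1 (gene Arntl) and CLOCK bind E-box elements and switch on the Period and Cryptochrome genes and clock output genes, and the PER and CRY proteins, CRY above all, then repress BMAL1 and CLOCK. The nuclear receptors REV-ERB (Nr1d1, Nr1d2) repress and ROR (Rora among them) activate Arntl through a shared response element, and in liver this machinery times metabolism and detoxification of drugs.

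Polyadenylated RNA of liver was sequenced in paired-end reads and counted per gene. Library totals ranged from 23866799 to 29934138 reads in WT at CT16 and from 18083916 to 24967995 in CryDKO at CT16. Values are given below as CPM, a gene's count scaled to a common library total, with effective library sizes from edgeR's TMM method, in the order of libraries 5, 6, 7 and 8 for WT and 11, 12, 13 and 14 for CryDKO. Whether each library is a different animal is not stated in the labels, and each p therefore measures the spread between these libraries. WT library 8 lay among the WT libraries dosed at CT8. On the first principal component of log2 CPM (42.3% of the variance) it scored -54.9, within the -67.7 to -50.03 of the 4 WT CT8 libraries and away from the -18.7 to -3.86 of WT libraries 5 to 7. Its TMM factor was 1.20, against 1.13 to 1.24 in WT at CT8 and 0.921 to 0.955 in WT libraries 5 to 7. Within CryDKO at CT16, library 14 was apart on the second component, at -45.0 against -2.56 to 12.1 in the others and -43.2 to -27.0 in WT libraries 5 to 7. Y-linked transcripts (4 genes) were present in all 8 libraries and Xist did not exceed 0.124 CPM, as in male tissue. The Y-linked sum was 160.3 to 205.8 CPM in WT and lower, at 113.5 to 160.9 CPM, in CryDKO. In these bulk samples, fewer cells of a type and less RNA per cell cannot be told apart.

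**Figure D1:**
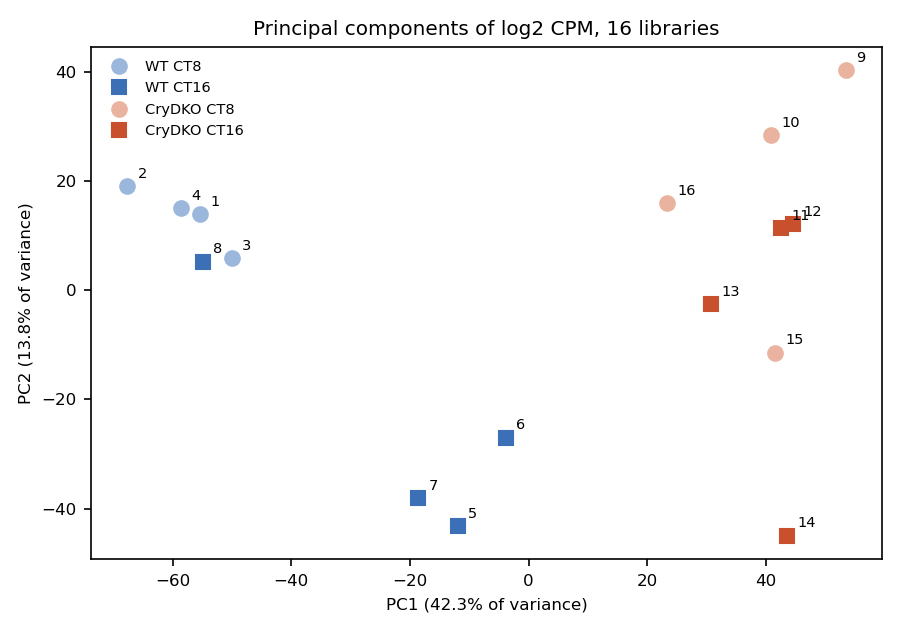
First and second principal components (unitless scores) of log2 CPM for all 16 libraries, numbered as in the count columns, with circles for CT8 and squares for CT16. WT library 8 lies at -54.9 on the first component among the WT CT8 libraries, and CryDKO library 14 at -45.0 on the second.

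Of 14484 genes tested, 2629 (18.2%) passed an adjusted p of 0.05 (edgeR, quasi-likelihood test, Benjamini-Hochberg method), 1303 higher in CryDKO (9.0%) and 1326 lower (9.15%). Without WT library 8, 1891 of 14696 genes passed (12.9%), 879 higher (5.98%) and 1012 lower (6.89%). Both fits called 1679 genes (11.6%), all in the same direction in both, 749 higher (5.17%) and 930 lower (6.42%), and 660 of them differed at least 2-fold. A further 950 genes passed only with library 8 and 212 only without it. Calls held in every one of the 8 fits that each left out 1 of the CT16 libraries for 1285 genes, 578 higher and 707 lower. The even split depended on the scaling: with library size alone, 605 genes were higher and 1883 lower, and the median log2 change of all genes moved from -0.00592 to -0.157. Log2 changes below are relative to the TMM median, CryDKO minus WT, with standard errors. List counts at CT16 below stand beside the shares of all genes above, 9.0% higher and 9.15% lower, or 5.98% and 6.89% without library 8. Not every move of a list count with 1 library left out is printed. Unless a sentence says otherwise, genes named as having risen or fallen passed with all libraries and without each CT16 library in turn.

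**Figure D2:**
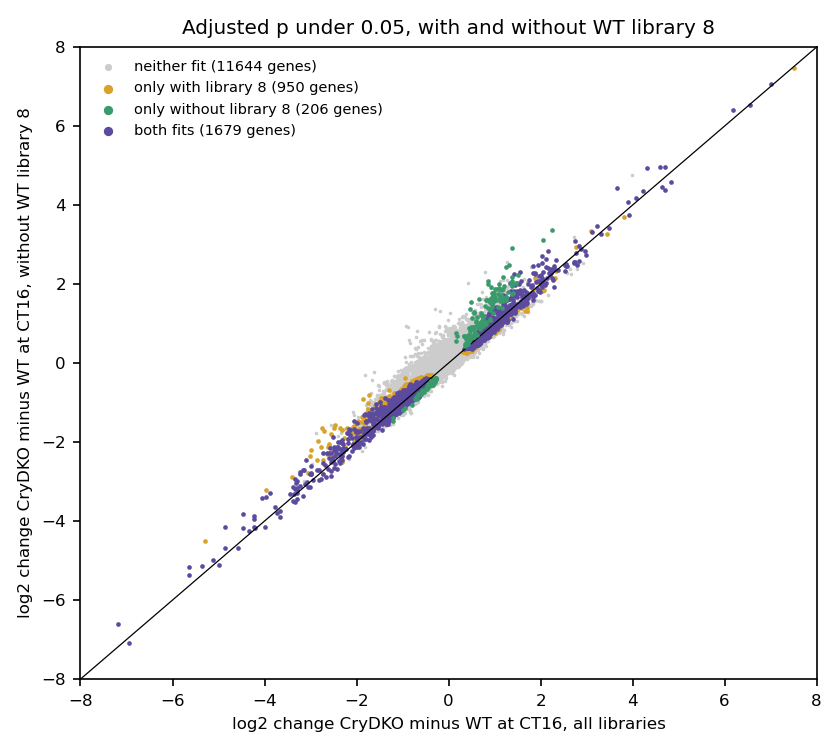
Log2 change of each gene tested in both fits at CT16 with all libraries (horizontal) and without WT library 8 (vertical). Colours show in which fit the adjusted p was under 0.05 (1679 genes in both, 950 only with and 206 only without library 8, a further 6 being untested in the first fit), the line marks equal values, and 3 genes lie outside the axes.

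The targeted genes came first. Counts per gene do not show which part was deleted, so these values do not check the knockout, and libraries are called CryDKO by their labels. Cry1 stood at 7.38, 5.14, 5.33 and 6.14 CPM in WT and at 27.0, 26.0, 24.3 and 29.0 in CryDKO. All 4 CryDKO libraries were above all WT libraries, a rise of 2.15 ± 0.18 on the log2 scale (adjusted p = 2.60e-07 in edgeR's test). Cry2 stood at 58.9, 51.8, 44.2 and 53.2 CPM in WT and 28.0, 24.1, 25.7 and 30.3 in CryDKO, with no overlap and a log2 change of -0.94 ± 0.14 (adjusted p = 1.99e-04).

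Among 16 tested clock genes under E-box or D-box control, 2 rose and 5 fell, against 9.0% and 9.15% of all genes. It was 2 and 3 without library 8. These counts include the targeted genes themselves, Cry1 among the rises and Cry2 among the falls. Leaving out another library gave 1 rise without WT library 5 or CryDKO library 12 or 13, 2 falls without WT library 5 or CryDKO library 13 and 3 falls without WT library 6 or CryDKO library 11, 12 or 14. Their median log2 change was -0.16, beside -0.00592 for all genes. Only Cry1, Cry2 and Nr1d2 of this list held in every fit that left out 1 library. Nr1d2, which encodes REV-ERB beta, stood at 138, 105, 104 and 143 CPM in WT and 82.8, 57.6, 82.6 and 85.1 in CryDKO, and fell by a log2 change of -0.67 ± 0.17 (adjusted p = 0.0108). Nr1d1, its relative REV-ERB alpha, was at 77.7, 85.7, 60.3 and 61.2 CPM in WT and 40.7, 51.9, 34.1 and 19.0 in CryDKO. Its groups did not overlap and it passed with all libraries (log2 change -0.97 ± 0.29, adjusted p = 0.0313), but not without WT library 5 or 6 or CryDKO library 11, 13 or 14 (adjusted p = 0.0509 to 0.0757).

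The Period genes differed among themselves. Per1 was at 67.8, 73.6, 78.5 and 88.9 CPM in WT and 122, 144, 141 and 86.3 in CryDKO, where libraries 11 to 13 lay above every WT library and library 14 within the WT range. Its log2 change of 0.68 ± 0.19 passed with all libraries (adjusted p = 0.0193) and not without WT library 5 or CryDKO library 12 or 13 (adjusted p = 0.0504 to 0.0597). Per2 had a log2 change of 0.24 ± 0.22 and did not pass (adjusted p = 0.472). Per3 was at 91.5, 70.2, 72.6 and 153 CPM in WT and 74.8, 45.4, 52.4 and 50.04 in CryDKO, and WT library 8 held the highest value. Its log2 change was -0.80 ± 0.27 with library 8 (adjusted p = 0.0494) and -0.50 ± 0.23 without it. The call was lost without WT library 5 or 8 or CryDKO library 12, 13 or 14 (adjusted p = 0.0745 to 0.17).

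Dbp, a D-box activator, was lower in all 4 CryDKO libraries (104, 85.7, 90.4 and 133 CPM) than in all 4 WT libraries (165, 158, 140.5 and 138 CPM). Its log2 change of -0.54 ± 0.18 passed (adjusted p = 0.0418), but not without WT library 5, 6, 7 or 8 or CryDKO library 11, 12 or 13 (adjusted p = 0.0507 to 0.121). Tef (-0.39 ± 0.15, adjusted p = 0.0766), Hlf (-0.29 ± 0.19, 0.289) and Ciart (0.23 ± 0.22, 0.484) did not pass.

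Of 10 tested clock activators and genes repressed by REV-ERB, 3 rose and 1 fell, and 2 rose and 1 fell without library 8. With 1 other library left out there were 2 falls without CryDKO library 14. The median log2 change was 0.18. Arntl, the gene of BMAL1, was low in WT at 1.90, 1.55, 0.955 and 0.941 CPM and stood at 10.8, 8.05, 7.71 and 8.55 CPM in CryDKO. The lowest CryDKO library was above the highest WT library, and Arntl rose by 2.72 ± 0.31 on the log2 scale (adjusted p = 1.55e-05). Rora, which encodes ROR alpha, went the other way from Arntl, from 78.9, 78.2, 71.3 and 54.4 CPM in WT to 50.2, 38.8, 38.5 and 46.1 in CryDKO without overlap (log2 change -0.70 ± 0.14, adjusted p = 0.00215). Nfil3, a D-box repressor, passed with all libraries (0.74 ± 0.23, adjusted p = 0.0338) but not without WT library 6, 7 or 8 or CryDKO library 11, 12 or 14 (adjusted p = 0.0551 to 0.101). Clock, the partner of BMAL1, had a log2 change of 0.05 ± 0.15 (adjusted p = 0.848).

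**Figure D3:**
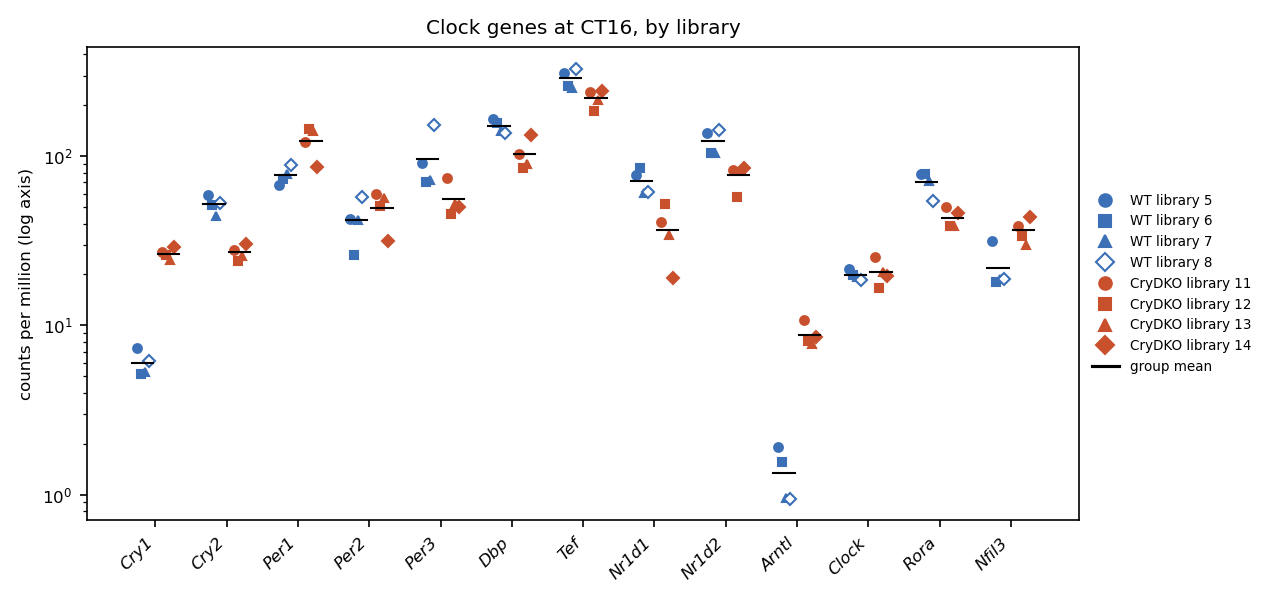
CPM of 13 clock genes in each CT16 library on a log axis, WT in blue (library 8 open) and CryDKO in red, with a black bar at each group mean. The groups are apart for Cry1, Cry2, Dbp, Tef, Nr1d1, Nr1d2, Arntl and Rora, and overlap for Per1, Per2, Per3, Clock and Nfil3.

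Promoter windows of 4 of these genes are shown because the loop acts through such elements. They are 300-base RefSeq windows of build GRCm38.p6 on the strand of the gene, while the reads were aligned by the authors to GRCm39. Windows were matched by symbol for 21 of 28 clock gene symbols. Capitals mark an E-box (CACGTG), a D-box (TTATGTAA or TTACGTAA) or a REV-ERB/ROR core (AGGTCA, or TGACCT on the other strand), each searched on both strands. Of all 32851 windows, 7.15% held the E-box letters, 1.06% the D-box letters and 16.3% the core. Cry1 (chr10:85185005-85185304, minus strand) held an E-box, Per1 (chr11:69098699-69098998, plus strand) an E-box and a core, Per3 (chr4:151044616-151044915, minus strand) a pair of D-boxes, and the second Arntl window (chr7:113207261-113207560, plus strand) a core.
Cry1: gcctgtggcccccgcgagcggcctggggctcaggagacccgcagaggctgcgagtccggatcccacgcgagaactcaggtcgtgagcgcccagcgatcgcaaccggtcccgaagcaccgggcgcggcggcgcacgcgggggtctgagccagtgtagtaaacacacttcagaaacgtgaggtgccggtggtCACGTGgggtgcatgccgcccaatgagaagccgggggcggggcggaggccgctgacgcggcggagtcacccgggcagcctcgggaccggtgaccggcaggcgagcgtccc
Per1: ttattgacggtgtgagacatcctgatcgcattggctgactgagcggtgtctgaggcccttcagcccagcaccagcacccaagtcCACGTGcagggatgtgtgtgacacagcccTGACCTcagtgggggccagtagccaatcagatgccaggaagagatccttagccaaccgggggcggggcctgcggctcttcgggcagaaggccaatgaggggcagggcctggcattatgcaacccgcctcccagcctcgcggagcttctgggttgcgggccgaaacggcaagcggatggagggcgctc
Per3: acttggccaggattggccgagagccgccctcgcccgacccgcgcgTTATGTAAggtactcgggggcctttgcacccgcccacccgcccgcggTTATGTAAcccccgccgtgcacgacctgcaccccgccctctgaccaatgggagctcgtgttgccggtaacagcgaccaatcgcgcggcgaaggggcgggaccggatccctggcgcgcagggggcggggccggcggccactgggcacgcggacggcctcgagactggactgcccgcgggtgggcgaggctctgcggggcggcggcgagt
Arntl: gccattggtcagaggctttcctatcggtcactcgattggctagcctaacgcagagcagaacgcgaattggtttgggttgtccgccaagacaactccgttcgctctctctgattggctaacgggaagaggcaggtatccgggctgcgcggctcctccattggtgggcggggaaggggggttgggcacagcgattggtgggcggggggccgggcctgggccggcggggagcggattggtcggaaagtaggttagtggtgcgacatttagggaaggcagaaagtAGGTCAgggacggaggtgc
Among the 21 clock genes with a window, the E-box was found for Cry1, Per1, Tef, Bhlhe41 and Ciart, the D-box for Per3, and the core for Per1, Nr1d2, Arntl, Clock and Nfil3. Counted by gene in the same way, 8.09% of all 27025 genes with a window had the E-box, 1.23% the D-box and 18.1% the core. Of the 5 genes with an E-box in the window, Cry1, itself a targeted gene, rose. Per1 passed as higher with all libraries but not without WT library 5 or CryDKO library 12 or 13. Tef, Bhlhe41 (log2 change 0.13 ± 0.24, adjusted p = 0.728) and Ciart did not pass. A match describes letters in a window and does not show binding.

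The genes with the largest changes were not clock genes. Among genes called in both fits, averaging at least 1 on the log2 CPM scale and with groups that did not overlap (1183 genes, 572 higher and 611 lower, where 19.8% of all genes did not overlap, 9.65% higher and 10.2% lower), the 12 largest rises and 12 largest falls were taken. Nat8f7, a gene of the Nat8 acetyltransferase cluster, had 0, 0, 0 and 1 read in the WT libraries and 236, 161, 231 and 133 reads in CryDKO. With 1 read in the whole WT group no fold is given. Smpdl3b, a membrane-anchored relative of acid sphingomyelinase, was at 0.289, 0.324, 0.184 and 0.453 CPM in WT and 28.7, 26.8, 20.8 and 16.4 in CryDKO. It rose by 6.18 ± 0.33 on the log2 scale (adjusted p = 3.85e-10), and its change at CT8 was 5.80 ± 0.32 (adjusted p = 1.03e-09). Lepr, the leptin receptor, was at 0.578, 4.68, 0.588 and 1.15 CPM in WT and 43.4, 71.5, 30.03 and 30.4 in CryDKO. Library 6 was the highest in WT, and Lepr rose by 4.63 ± 0.76 (adjusted p = 0.00183), and by 5.81 without that library.

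Ugt1a9, a glucuronidation enzyme whose exons are partly shared with other Ugt1a genes, stood at 28.7, 19.4, 17.7 and 8.19 CPM in WT and 156, 99.5, 109 and 159 in CryDKO. It rose by 2.83 ± 0.30 (adjusted p = 1.92e-05). Cyfip2, a part of the WAVE actin-regulating complex, rose by 4.23 ± 0.35, Nup62cl by 4.32 ± 0.48 (4.94 without WT library 8), Ttc39a by 2.87 ± 0.24, Lingo4 by 3.48 ± 0.54 and Pcp4l1 by 2.83 ± 0.68, each without overlap. Rad51b, a factor of homologous recombination, was at 1.61, 2.09, 2.09 and 3.17 CPM in WT and 13.8, 48.2, 9.82 and 6.30 in CryDKO, with library 12 far above the others. It rose by 3.12 ± 0.76 in edgeR (adjusted p = 0.0145), and by 2.15 without library 12 (adjusted p = 0.0369), and did not pass in limma voom (adjusted p = 0.0609).

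The largest falls included immune ligands. Raet1d, which encodes an RAE-1 ligand of the NKG2D receptor, was at 29.7, 10.7, 17.8 and 13.8 CPM in WT and 0.411, 0.619, 0.400 and 0.768 in CryDKO. The groups were far apart and it fell by a log2 change of -5.00 ± 0.37 (adjusted p = 1.28e-07). Its neighbour in the family, Raet1e, changed by -4.57 ± 0.55 (adjusted p = 2.86e-05), and reads of such near-identical copies could be split between them. Clec2h, a C-type lectin, was at 7.63, 10.8, 4.56 and 6.03 CPM in WT and 0.470, 0.0442, 0.400 and 1.38 in CryDKO (log2 change -3.66 ± 0.77, adjusted p = 0.00552; -4.63 without CryDKO library 14).

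Ddah1, which degrades asymmetric dimethylarginine, was at 97.6, 103, 83.2 and 52.6 CPM in WT and 18.1, 9.60, 1.31 and 4.35 in CryDKO. All CryDKO libraries were lower, and Ddah1 fell by a log2 change of -3.33 ± 0.79 (adjusted p = 0.0131; -4.02 without CryDKO library 11), with -1.17 ± 0.72 at CT8 (adjusted p = 0.217). Falls of the imprinted noncoding RNA Meg3 (-2.46 ± 0.43), the noncoding Snhg11 (-3.11 ± 0.63, or -2.44 without WT library 8), the Rac exchange factor Tiam2 (-2.50 ± 0.39, or -3.11 without CryDKO library 14), the brain-type cholesterol 24-hydroxylase Cyp46a1 (-2.29 ± 0.42) and R3hdml (-2.39 ± 0.53) were also without overlap. Lpl, lipoprotein lipase, was at 8.00, 53.4, 9.15 and 7.67 CPM in WT, where library 6 stood far above the rest, and at 4.06, 2.12, 3.94 and 3.18 in CryDKO. Its log2 change of -2.56 ± 0.66 passed (adjusted p = 0.0179) except without CryDKO library 12 (adjusted p = 0.0547), and it was -1.32 without WT library 6 (adjusted p = 0.0156).

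Female-biased liver genes gave some of the largest rises, to degrees that differed between CryDKO libraries. Of 20 tested female-biased genes, 6 rose and 1 fell (4 and 1 without library 8), against 9.0% and 9.15% of all genes. Their median log2 change was 1.26. The numbers of rises over the fits leaving out 1 library ran from 4 (without WT library 6, WT library 8, CryDKO library 11 or CryDKO library 12) to 7 (without CryDKO library 13). Cyp2b9, a cytochrome P450 with near-identical relatives, was at 2.39, 1.40, 1.43 and 2.13 CPM in WT and 355, 384, 55.4 and 151 in CryDKO. It rose by 7.01 ± 0.71 (adjusted p = 5.90e-05), and even the lowest CryDKO library, 13, was far above WT.

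Cyp2c40, an arachidonic acid hydroxylase, rose by 2.53 ± 0.43 (adjusted p = 0.00172), from 14.1, 5.00, 18.7 and 6.52 CPM in WT to 63.3, 109.8, 42.0 and 40.2 in CryDKO. Cyp2c69 rose by 2.96 ± 0.70 (adjusted p = 0.0127), although library 13, at 174, 296, 32.5 and 97.9 CPM in the order given, lay inside the WT range of 21.6, 5.86, 34.7 and 14.96. It did not pass in a fit of the CT16 libraries alone (adjusted p = 0.0614). Cyp2b13 showed the widest spread, with 1270, 8015, 7 and 13 reads in CryDKO against 0, 0, 0 and 2 in WT, and did not pass (adjusted p = 0.0609). Cd36, a fatty acid carrier, was the member that fell, from 67.3, 69.4, 73.5 and 55.6 CPM to 25.7, 34.9, 12.9 and 23.6 (log2 change -1.45 ± 0.34, adjusted p = 0.00999).

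Male-biased genes differed between CryDKO libraries. Of 20 tested, 0 rose and 2 fell, beside 9.0% and 9.15% of all genes, so the falls were near that share. Without library 8 it was 0 and 1 of 21, beside 5.98% and 6.89% of all genes. The median log2 change was -0.61, and ran from -0.36 without WT library 5 to -1.25 without CryDKO library 13. Further exclusions of 1 library gave 1 fall without WT library 5 or 7 or CryDKO library 11, 12 or 14. DESeq2 also called 0 higher and 2 lower, and at an unadjusted p under 0.05 edgeR had 0 higher and 3 lower. Selenbp2, a selenium-binding protein gene with a close copy, was at 104, 46.8, 129 and 50.7 CPM in WT and 8.64, 5.88, 17.2 and 16.9 in CryDKO and fell by a log2 change of -2.77 ± 0.64 (adjusted p = 0.0111). How many of all genes lay outside the WT range in each CryDKO library is not given here. The counts by library that follow therefore describe the sex-biased lists only. In CryDKO library 11, 17 of the 20 male-biased genes lay below all WT libraries, and in library 12 it was 16. In library 13 only 1 lay below and 8 lay above, and in library 14 it was 5 below and 1 above. Of the 20 female-biased genes, 15 were above all WT libraries in each of libraries 11 and 12, with 2 and 1 below. In library 13 it was 5 above and 10 below, and in library 14 it was 10 above and 4 below. Summed major urinary protein genes (22 Mup genes, made under male growth hormone pulses) came to 8691, 7806, 9913 and 10739 CPM in WT and to 1671, 2288, 10301 and 6669 CPM in CryDKO. The sums of libraries 11, 12 and 14 lay below every WT library and that of library 13 within the WT range.

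**Figure D4:**
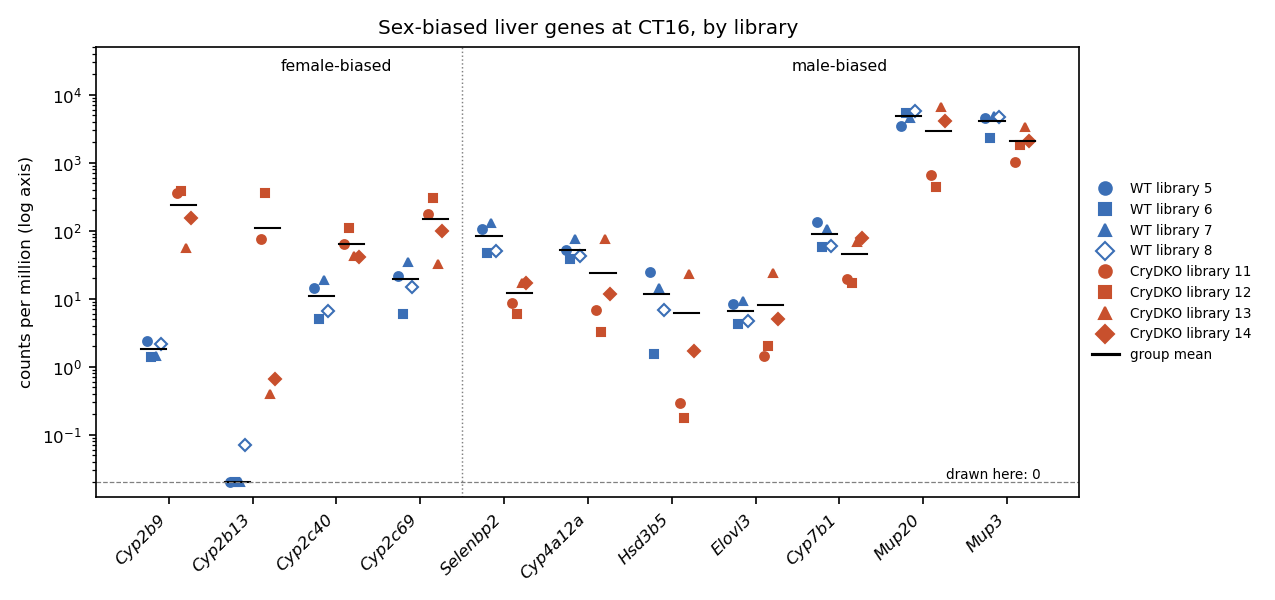
CPM of 4 female-biased and 7 male-biased liver genes in each CT16 library on a log axis, WT in blue (library 8 open) and CryDKO in red, with group means as bars and values of 0 drawn on the dashed line. Within CryDKO, libraries 11 and 12 hold the highest values of the 4 female-biased genes shown and the lowest of the 7 male-biased ones, Mup3 of library 14 lying close to that of library 12.

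Sex-biased liver expression is set by the pattern of growth hormone. Of 15 tested genes of the growth hormone receptor, STAT5 and feedback, 4 rose and 3 fell, against 9.0% and 9.15% of all genes. It was 3 and 3 without library 8. Counts moved with other libraries too, to 2 rises without WT library 6 or CryDKO library 12. Rises ran from 2 to 3 over the fits leaving out 1 library. Ghr, the receptor, was at 573, 401, 429 and 446 CPM in WT and 306, 214, 211 and 264 in CryDKO. All 4 CryDKO libraries, library 13 included, were lower, with a log2 change of -0.89 ± 0.21 (adjusted p = 0.0058). Igf1, the main hormone made in response, was lower in all CryDKO libraries as well (-0.70 ± 0.21, adjusted p = 0.0253), a call lost without WT library 5 or 7 or CryDKO library 11 or 13 (adjusted p = 0.0585 to 0.0866). Bcl6, a male-biased repressor, was at 26.9, 27.7, 12.2 and 53.4 CPM in WT, highest in library 8, and at 10.2, 8.14, 10.6 and 11.6 in CryDKO. It fell by a log2 change of -1.57 ± 0.36 with library 8 (adjusted p = 0.00854) and -1.14 ± 0.29 without it, but did not pass in limma voom with quality weights (adjusted p = 0.103). Ptpn1, a phosphatase that damps JAK2, rose by 0.78 ± 0.14 (adjusted p = 8.78e-04), and Hnf4a, a master factor of hepatocytes, by 0.70 ± 0.17 (adjusted p = 0.00807). The feedback gene Socs2 and Stat5a were also higher in each fit that left out a CT16 library, with less stable calls in edgeR. Socs2 changed by 1.36 without CryDKO library 11 (adjusted p = 0.0377) and 1.09 without WT library 8 (0.0956). Stat5a changed by 0.67 without CryDKO library 13 (adjusted p = 0.0212) and 0.46 without CryDKO library 11 (0.0938).

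Among 31 tested enzymes that conjugate drugs, 5 rose and 9 fell (3 and 10 without library 8), against 9.0% and 9.15% of all genes. Their median log2 change was -0.46. Leaving out another library gave 3 rises without WT library 7. Gstm4, a glutathione transferase, was at 42.4, 55.3, 59.2 and 35.0 CPM in WT and 21.9, 24.7, 22.1 and 20.7 in CryDKO without overlap (log2 change -1.10 ± 0.17, adjusted p = 2.29e-04). At CT8 its change was -0.04 ± 0.16, and the difference between the times passed in the fit without library 8 (adjusted p = 0.0152) and not with it (0.103). Sult1b1, a sulfotransferase (-1.18 ± 0.22), Tpmt, thiopurine methyltransferase (-0.98 ± 0.19), Gstm2 (-0.98 ± 0.22), Ugt2b36 (-0.72 ± 0.17) and Nat2 (-0.79 ± 0.17) fell too. Ugt1a9, Gstt1 (0.70 ± 0.16) and the acetyltransferase Nat8 (2.01 ± 0.45) rose. Gstm, Ugt and Nat8 genes have close copies, so their counts are uncertain where reads could be split.

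Phase I enzymes and their receptors had 3 rises and 4 falls of 32 tested (1 and 4 without library 8), near the 9.0% and 9.15% of all genes, and a median log2 change of 0.13. With 1 other library left out there were 1 rise without CryDKO library 12 and 5 rises without WT library 5. Cyp2a5, a coumarin hydroxylase, was at 1172, 1465, 1344 and 979 CPM in WT and 511, 284, 188 and 352 in CryDKO. The highest CryDKO library was below the lowest WT library, a fall of log2 change -1.89 ± 0.24 (adjusted p = 4.97e-05). Cyp2j5, an epoxygenase (-0.71 ± 0.16), Cyp3a25 (-0.86 ± 0.20) and Aldh1a7 (-0.82 ± 0.20) fell, and Ces1d, a carboxylesterase, rose by 1.11 ± 0.19 (adjusted p = 7.08e-04).

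Of 18 tested platinum uptake and efflux transporters, 1 rose and 1 fell (0 and 2 without library 8), which is near the 9.0% higher and 9.15% lower of all genes, and the median log2 change was -0.07. Further exclusions of 1 library gave 0 rises without CryDKO library 12 or 14. Slc22a4, an organic cation carrier, was at 5.24, 7.34, 4.89 and 7.43 CPM in WT and 3.88, 2.12, 2.51 and 3.59 in CryDKO and fell by a log2 change of -1.04 ± 0.22 (adjusted p = 0.00337). The copper carrier Slc31a1 (-0.37 ± 0.15, adjusted p = 0.0995), the copper pump Atp7b (-0.15 ± 0.15, 0.502) and the efflux pump Abcc2 (-0.11 ± 0.21, 0.757) did not pass with all libraries. Slc31a1 passed without library 8 (-0.47 ± 0.15, adjusted p = 0.0458).

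In the p53 pathway, which responds to DNA damage, 6 of 29 tested genes rose and 0 fell, against 9.0% and 9.15% of all genes. Only 2 rose without library 8, near the 5.98% of all genes higher in that fit. DESeq2 called the same numbers with all libraries, and at an unadjusted p under 0.05 edgeR had 7 higher and 2 lower with all libraries and 9 and 0 without library 8. Without CryDKO library 14 there was 1 fall. The median log2 change was 0.23. Across fits leaving out 1 library, rises ran from 2 (without WT library 7, WT library 8 or CryDKO library 12) to 6 (without CryDKO library 11). Bax, a promoter of apoptosis, was at 31.4, 52.2, 53.9 and 45.9 CPM in WT and 64.1, 138, 92.7 and 103 in CryDKO. All CryDKO libraries were higher, and Bax rose by 1.12 ± 0.20 (adjusted p = 0.00121). Cdkn1a, the p21 cell cycle inhibitor, was at 18.8, 34.9, 31.8 and 33.4 CPM in WT and 40.6, 109.9, 69.8 and 65.4 in CryDKO without overlap. Its log2 change of 1.27 ± 0.38 passed (adjusted p = 0.0333) but not without WT library 5, 6, 7 or 8 or CryDKO library 12, 13 or 14 (adjusted p = 0.0502 to 0.102). Library 12 was the highest of the 8 for 18 of the 29 genes, among them Cdkn1a and Bax. It was also the highest for 19 of 36 PPAR alpha genes and 10 of 20 female-biased genes, but for 3 of 31 in nucleotide excision repair. Its share over all genes is not given here. Mdm2, the p53 antagonist, did not pass (-0.21 ± 0.19, adjusted p = 0.477).

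In nucleotide excision repair, which removes platinum adducts, 4 of 31 rose and 2 fell (4 and 3 without library 8), beside 9.0% and 9.15% of all genes, with a median of 0.03 that turned negative (-0.03) without library 8. Counts moved with other libraries too, to 2 rises without WT library 7 or CryDKO library 11 or 13 and 1 fall without WT library 5, 6 or 7 or CryDKO library 12, 13 or 14. Ercc3, a helicase of TFIIH, rose by 0.67 ± 0.14 (adjusted p = 0.00291), and Uvssa, a factor of transcription-coupled repair, changed by -0.78 ± 0.19 (0.0083). In crosslink, recombination and translesion repair 5 of 34 rose and 2 fell (4 and 1 without library 8). Leaving out another library gave 3 rises without WT library 6 or CryDKO library 12 or 13, 0 falls without CryDKO library 12 or 13 and 1 fall without WT library 6. Rises of this list ran from 3 to 4 over the fits leaving out 1 library. Mad2l2, a subunit of translesion polymerase zeta, was at 12.7, 12.3, 13.5 and 9.94 CPM in WT and 19.9, 23.3, 20.4 and 15.9 in CryDKO and rose by 0.72 ± 0.15 (adjusted p = 0.00293).

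Among 25 tested NRF2 targets and glutathione and metallothionein genes, 4 rose and 2 fell, against 9.0% and 9.15% of all genes. The counts were 2 and 2 without library 8, and the median was 0.29 with all libraries. With 1 other library left out there were 2 rises without CryDKO library 12 and 1 fall without WT library 5 or 7 or CryDKO library 12 or 14. Nfe2l2, which encodes NRF2 itself, was at 90.8, 78.7, 105 and 103 CPM in WT and 65.3, 47.0, 52.2 and 37.3 in CryDKO and fell by a log2 change of -0.90 ± 0.17 (adjusted p = 0.00128). Tkt, transketolase of the pentose phosphate pathway, rose by 0.87 ± 0.19 (adjusted p = 0.00416).

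Interferon response genes that passed were falls. Of 39 tested, 0 rose and 11 fell (0 and 6 without library 8), against 9.15% of all genes lower, and the median log2 change was -0.43 (-0.42 without library 8). At an unadjusted p under 0.05 edgeR had 0 higher and 18 lower (1 and 15 without library 8). DESeq2 called 0 higher and 15 lower with all libraries. In 11 of the 39 all CryDKO libraries were below all WT libraries, where 10.2% of all genes were. CryDKO library 14 was the lowest of the 8 libraries for 18 genes and WT library 8 the highest for 19, and the falls numbered 7 without library 14. The shares of all genes for which these libraries were lowest or highest are not given here. Falls over the fits leaving out 1 library ran from 6 (without WT library 5, WT library 8 or CryDKO library 13) to 14 (without CryDKO library 11). Ifih1, the RNA sensor MDA5, was at 37.5, 29.0, 27.5 and 30.4 CPM in WT and 20.6, 16.1, 18.2 and 16.0 in CryDKO without overlap (log2 change -0.81 ± 0.13, adjusted p = 4.71e-04). Ifit1, an RNA-binding effector, was at 9.90, 9.28, 7.39 and 9.48 CPM in WT and 4.59, 3.72, 2.34 and 2.25 in CryDKO and fell by a log2 change of -1.48 ± 0.26 (adjusted p = 7.37e-04). Xaf1 was highest in WT library 8, at 5.86, 5.58, 6.03 and 12.9 CPM in WT and 3.06, 3.41, 1.77 and 1.38 in CryDKO. It changed by -1.66 ± 0.38 with library 8 and -1.29 ± 0.34 without it (adjusted p = 0.00727 and 0.0203). The GTPase Iigp1 (-0.65 ± 0.17) and Oasl1 (-0.61 ± 0.15) fell too.

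In the acute phase response 4 of 33 rose and 3 fell (1 and 3 without library 8), and the serum amyloid genes were among the falls. Beside these counts stand 9.0% and 9.15% of all genes, or 5.98% and 6.89% without library 8. Further exclusions of 1 library gave 1 rise without WT library 7 or CryDKO library 12 and 2 rises without CryDKO library 13. Saa2, a lipoprotein-bound inflammation protein, was at 5072, 8592, 6318 and 5604 CPM in WT and 1557, 506, 562 and 1237 in CryDKO. Every CryDKO library was lower, a log2 change of -2.73 ± 0.65 (adjusted p = 0.0115), beside 0.85 ± 0.61 at CT8 (adjusted p = 0.289). The difference between the times did not pass with library 8 (adjusted p = 0.171) or without it (0.0541). Saa3 fell by a log2 change of -1.52 ± 0.18 (adjusted p = 2.51e-05). Saa1, a near copy of Saa2, changed by -2.07 ± 0.54 (adjusted p = 0.0167), not passing without CryDKO library 13 (adjusted p = 0.0512). Cd14, a receptor for bacterial lipopolysaccharide, rose from 1.03, 1.08, 1.03 and 0.802 CPM to 5.82, 7.87, 4.51 and 5.07 (2.56 ± 0.41, adjusted p = 5.60e-04).

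Of 18 NF-kB feedback genes and targets, 4 rose and 0 fell (3 and 0 without library 8), against 9.0% and 9.15% of all genes. Their median was 0.35. Counts moved with other libraries too, to 2 rises without CryDKO library 11 or 13. Icam1, an adhesion molecule, was at 14.03, 18.1, 16.4 and 16.0 CPM in WT and 29.98, 46.1, 29.2 and 24.8 in CryDKO and rose by 1.01 ± 0.19 (adjusted p = 0.00138).

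Markers of other liver cells were counted beside these immune genes. Of 14 tested Kupffer cell and macrophage markers, 5 rose and 1 fell with all libraries, against 9.0% and 9.15% of all genes. Of the 15 tested without library 8, 10 rose and 1 fell, against 5.98% and 6.89%. The median log2 change was 1.06 and 1.65, respectively, and rises over the fits leaving out 1 library ran from 3 (without WT library 6 or CryDKO library 13) to 10 (without WT library 8). C1qa, a complement subunit made by macrophages, was at 8.91, 5.58, 5.00 and 12.7 CPM in WT and 19.9, 19.0, 26.9 and 18.6 in CryDKO and rose by 1.39 ± 0.30 (adjusted p = 0.00476). C1qb rose by 1.45 ± 0.33 (adjusted p = 0.00708). Clec4f, a lectin of Kupffer cells, was at 12.7, 4.82, 6.32 and 27.4 CPM in WT and 33.8, 24.5, 40.5 and 34.9 in CryDKO. Library 8 alone among WT reached the CryDKO range, and the adjusted p was 0.0504 with it and 0.00189 without it. The member that fell was Mpeg1 (-1.06 ± 0.32, adjusted p = 0.0349), a call lost without WT library 5 or 6 or CryDKO library 11, 12 or 13 (adjusted p = 0.0681 to 0.0902). The summed level of the 15 markers ran from 82.2 to 186 CPM in WT, from 82.2 to 130.0 without library 8, and from 153 to 271 in CryDKO, with no marker at 0 in all libraries. Its part in the immune results was not tested.

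Stab2, a scavenger receptor of sinusoidal endothelium, was the 1 of 12 endothelial markers to rise with all libraries, from 12.99, 11.9, 8.38 and 19.1 CPM to 29.2, 23.0, 27.0 and 34.3 (1.11 ± 0.20, adjusted p = 0.00113). Without library 8, 2 rose and 0 fell. Beside the marker counts here stand 9.0% and 9.15% of all genes, or 5.98% and 6.89% without library 8. The sums of the endothelial markers overlapped, at 63.7 to 172 CPM in WT and 96.3 to 141 in CryDKO. Stellate cell and fibroblast markers (14 tested, 2 rose, 0 fell; 1 and 0 without library 8) had 0 rises without WT library 5 or CryDKO library 12, 1 without WT library 6 or 7 or CryDKO library 11 and 4 without CryDKO library 14. They summed to 115 to 266 CPM in WT and 93.3 to 294 in CryDKO. Cholangiocyte markers (8 tested, 1 rose, 1 fell; 0 and 1) summed to 61.5 to 93.4 and 62.6 to 170.5 CPM. Hepatocyte markers, 3 of 12 rising and 0 falling (1 and 0), made up 75484 to 132097 CPM in WT, lowest in library 8, and 136987 to 203168 CPM in CryDKO. Abundant members weigh most in such a sum. The median log2 change of the 12 was 0.27, or 0.11 without library 8. Only Hnf4a of this list passed in every fit that left out 1 library.

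**Figure D5:**
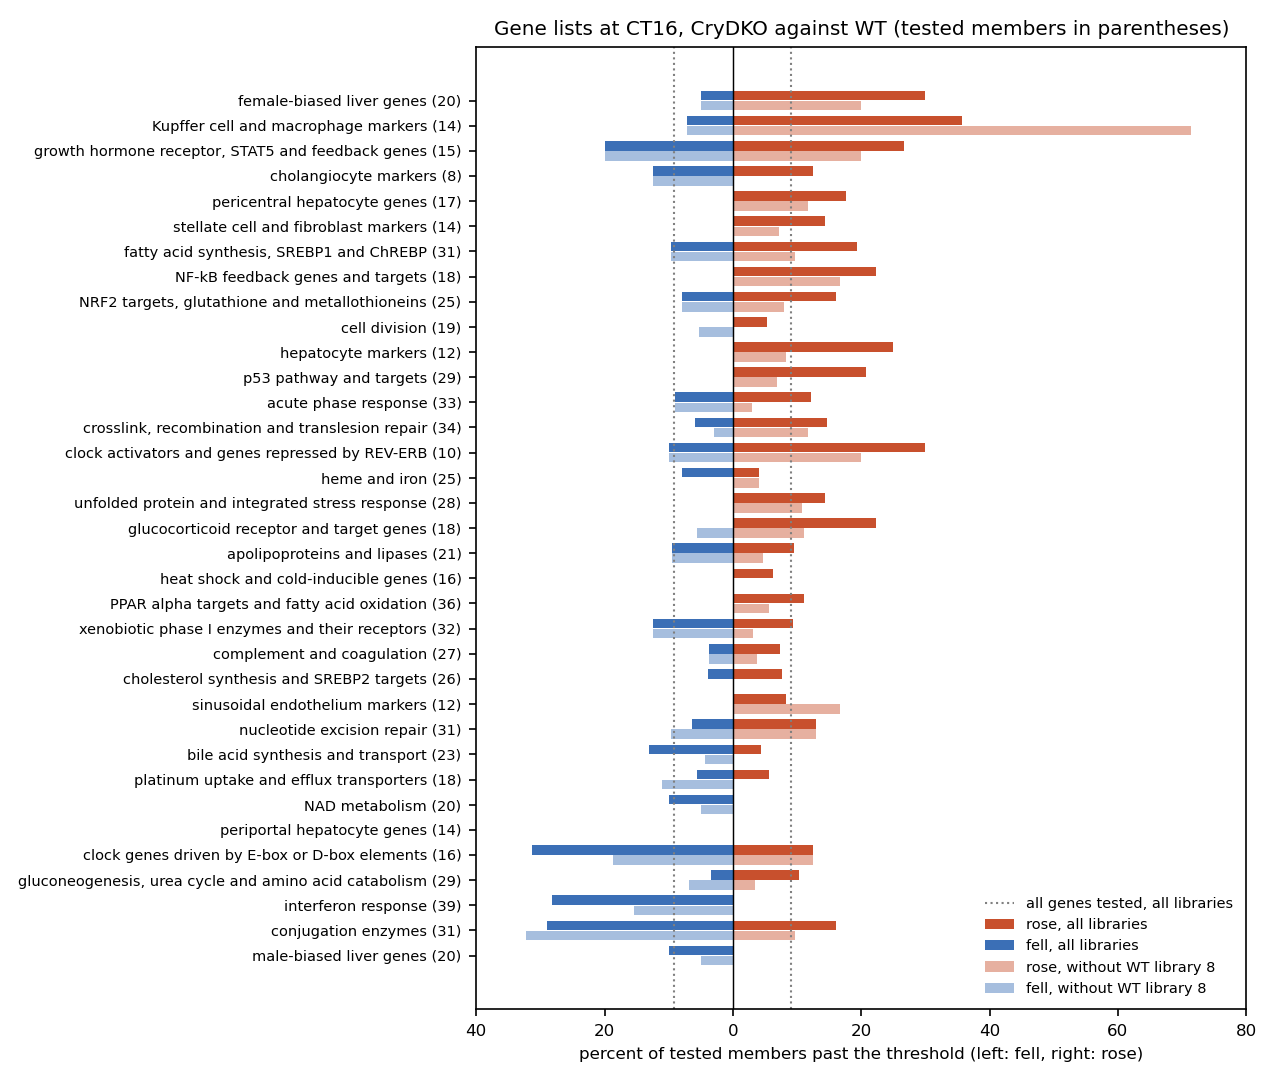
Percent of the tested members of each list (number in parentheses, lists of at least 8) that rose (right) or fell (left) at CT16 in CryDKO, with all libraries (dark) and without WT library 8 (pale), ordered by median log2 change. Dotted lines mark the 9.0% higher and 9.15% lower of all genes with all libraries, and macrophage markers show the widest gap between the bars, with 5 rises of 14 and 10 of 15 without library 8.

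In fatty acid synthesis and its SREBP1 and ChREBP control, 6 of 31 rose and 3 fell, against 9.0% and 9.15% of all genes. The median was 0.37, and the counts were 3 and 3 without library 8. Leaving out another library gave 3 rises without WT library 5 or CryDKO library 11. Rises ran from 3 to 5 over the fits leaving out 1 library. Slc2a5, the fructose transporter, was at 15.3, 10.6, 10.9 and 5.58 CPM in WT and 3.23, 2.30, 3.43 and 3.89 in CryDKO without overlap and fell by a log2 change of -1.72 ± 0.26 (adjusted p = 2.83e-04). Agpat2, of glycerolipid synthesis, rose by 0.84 ± 0.16 (adjusted p = 0.00186), and Acacb, an acetyl-CoA carboxylase, by 1.17 ± 0.28 (0.0087). Of 36 PPAR alpha targets and fatty acid oxidation genes, 4 rose and 0 fell, against 9.0% and 9.15% of all genes. For this list 2 rose and 0 fell without library 8. With 1 other library left out there were 2 rises without CryDKO library 12. Pdk4, the brake on pyruvate oxidation, was at 1.98, 3.56, 1.87 and 1.92 CPM in WT and 8.70, 5.44, 5.54 and 10.2 in CryDKO and rose by 1.67 ± 0.37 (adjusted p = 0.00583). Plin5, a lipid droplet coat protein, rose by 0.98 ± 0.18 (adjusted p = 0.0013).

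Gluconeogenesis, urea cycle and amino acid catabolism had 3 rises and 1 fall of 29 (1 and 2 without library 8), at a median of -0.20. For this list and the glucocorticoid list below, the shares of all genes were 9.0% and 9.15% (5.98% and 6.89% without library 8). Further exclusions of 1 library gave 1 rise without CryDKO library 13 or 14 and 2 falls without CryDKO library 13 or 14. Slc38a4, an amino acid carrier, fell by a log2 change of -0.81 ± 0.20 (adjusted p = 0.00948), from 1736, 1826, 1354 and 947 CPM to 990.2, 720.2, 717 and 914, where WT library 8 overlapped the CryDKO range. Nags, which makes the activator of the urea cycle, rose by 0.57 ± 0.14 (adjusted p = 0.00722). Pck1, of gluconeogenesis, did not pass (-0.06 ± 0.29, adjusted p = 0.905). The glucocorticoid receptor and its targets had 4 rises and 0 falls of 18 (2 and 1 without library 8), led by Hsd11b1, which regenerates active glucocorticoid, at 485, 372, 465 and 334 CPM in WT and 905, 841, 689 and 883 in CryDKO (1.00 ± 0.18, adjusted p = 9.09e-04). Counts moved with other libraries too, to 1 rise without WT library 5 and 2 rises without CryDKO library 12, 13 or 14.

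Of 23 bile acid genes 1 rose and 3 fell (0 and 1 without library 8), against 9.0% and 9.15% of all genes. Leaving out another library gave 0 rises without WT library 7 or CryDKO library 14, 2 rises without CryDKO library 12, 0 falls without CryDKO library 12 and 1 fall without WT library 5 or 6 or CryDKO library 11, 13 or 14. Cyp7a1, the rate-limiting enzyme of bile acid synthesis, was at 379, 323, 383 and 834 CPM in WT and 195, 160.4, 257 and 247 in CryDKO. The groups did not overlap, but library 8 was far above the other WT libraries. Its log2 change was -1.16 ± 0.33 with library 8 (adjusted p = 0.0214) and -0.76 ± 0.28 without it (adjusted p = 0.0849), and the call was lost without WT library 8 or CryDKO library 11 or 12 (adjusted p = 0.0532 to 0.0849). Cholesterol synthesis had 2 rises and 1 fall of 26, and 0 and 0 without library 8. With 1 other library left out there were 0 rises without WT library 7, 1 rise without WT library 6 or CryDKO library 11, 12, 13 or 14 and 0 falls without WT library 5 or 7 or CryDKO library 12, 13 or 14.

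The unfolded protein and integrated stress response had 4 rises and 0 falls of 28 (3 and 0 without library 8). The shares of all genes were 9.0% and 9.15% (5.98% and 6.89% without library 8). Creld2, a chaperone partner of the endoplasmic reticulum, was at 20.5, 18.8, 23.8 and 17.9 CPM in WT and 27.7, 78.4, 70.8 and 53.3 in CryDKO, with library 11 the lowest of CryDKO. It rose by 1.51 ± 0.23 (adjusted p = 3.19e-04). Hyou1, a chaperone, rose by 1.03 ± 0.21 (adjusted p = 0.00243), although CryDKO library 11 (138, 242, 293 and 206 CPM in the order given) lay within the WT range (145, 90.8, 121 and 75.0). Eif2ak3, the stress kinase PERK, rose by 0.80 ± 0.20 (adjusted p = 0.011).

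The same contrast at CT8 called 5649 genes (39.0%), 2706 higher (18.7%) and 2943 lower (20.3%). The CT8 and CT16 contrasts share no libraries, only the estimate of spread. Of the 1679 genes called at CT16 in both fits, 1134 were called in the same direction at CT8, 4 in the opposite direction and 541 not at CT8. The 1134 were 67.5% of the CT16 list and 20.1% of the CT8 list. Across the genes tested, which are not independent, the Spearman correlation of the log2 changes at CT8 and CT16 was 0.697.

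The difference between the genotype effects was tested as an interaction. With all libraries 6 genes passed (0.0414%), 4 higher (0.0276%) and 2 lower (0.0138%) at CT16 than at CT8, and 1927 had an unadjusted p under 0.05. Without WT library 8 it was 568 genes (3.86%), 275 higher (1.87%) and 293 lower (1.99%). Among the 1679 genes called at CT16 in both fits, 0 had an interaction call in edgeR's test with library 8 (301 had an unadjusted p under 0.05) and 85 without it. There were 4 genes that met the conditions for naming. Ppib, cyclophilin B of the endoplasmic reticulum, had a log2 change of -0.51 ± 0.18 at CT16 and 1.21 ± 0.19 at CT8, a difference of -1.72 ± 0.26 (adjusted p = 0.026). Tnfaip3, the NF-kB inhibitor A20, had -0.50 ± 0.26 and 1.59 ± 0.26, a difference of -2.09 ± 0.37 (adjusted p = 0.0398). Cyp2j9, an epoxygenase, had 0.34 ± 0.24 and -1.72 ± 0.25, a difference of 2.05 ± 0.35 (0.0398), and the sulfotransferase Sult5a1 -0.54 ± 0.33 and -3.52 ± 0.38, a difference of 2.98 ± 0.50 (0.0398). None of the 4 passed at CT16 itself in edgeR's test.

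Among genes described above, besides those 4, the interaction passed without library 8 for Cry1 (log2 difference 1.09 ± 0.26, adjusted p = 0.0315), Nup62cl (2.5 ± 0.65, 0.0415), Gstm4 (-1.22 ± 0.21, 0.0152), Gstm2 (-1.28 ± 0.30, 0.0285), Cyp2j5 (-0.76 ± 0.19, 0.0392), Slc2a5 (-1.45 ± 0.32, 0.0235), Slc38a4 (-1.19 ± 0.25, 0.0206), Stab2 (1.15 ± 0.25, 0.0243) and Clec4f (1.94 ± 0.45, 0.0342). With library 8 it passed for none of these, at adjusted p from 0.103 (Cry1 and Gstm4) to 0.4 (Clec4f). Periportal hepatocyte genes had 0 calls in either direction of 14 at CT16, with all libraries and without library 8 in edgeR and also in DESeq2, with 1 higher and 1 lower at an unadjusted p under 0.05, and 10 rises and 1 fall at CT8. The median log2 change was -0.16 at CT16 and 1.00 at CT8. Acute phase genes had 17 rises and 1 fall of 33 at CT8, and unfolded protein response genes 14 and 0 of 28. The CT8 counts of these 3 lists stand beside 18.7% of all genes higher and 20.3% lower at CT8, against 9.0% and 9.15% at CT16. Of single members, the periportal gene Sult5a1 is the one named above with an interaction call. These list differences between the times were not tested.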

How the data were processed

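Poly(A) RNA-seq of mouse liver was analysed for 16 libraries, 4 per genotype and dosing time. Per the submitters' processing notes, the authors used FastQC, Trimmomatic 0.35, STAR 2.5.3, HTSeq 1.99.2, DESeq2 and build GRCm39. Annotation, strand setting and collection time are not given in the sources used here, so overlapping and near-identical genes are uncertain. The authors deposited raw read counts for 40840 gene symbols, with totals at CT16 of 18083916 to 29934138 reads. The authors also deposited a signal table, counts divided by a size factor for 19592 genes, used in 1 alternative. Its CryDKO CT8 columns carry each other's numbers when matched to the counts, which does not touch CT16. Columns name group and running number, so they were mapped to groups only.

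Counts were fitted with edgeR 4.0.16 (R 4.3.3): filterByExpr, TMM, robust quasi-likelihood fit with 1 coefficient per group over all 16 libraries, Benjamini-Hochberg adjustment over all genes tested, threshold 0.05. There were 3 contrasts: CryDKO minus WT at CT16, the same at CT8, and their difference. Each was refitted without WT library 8. Standard errors are the size of the log2 change over the root of the F statistic. Alternatives were DESeq2 1.42.0, limma 3.58.1 (voom, voom with quality weights, and a trend fit of log2(normalized value + 1)), other scalings, no low-count filter, only the CT16 libraries, and leaving out each library. The pipeline was tested on simulated data. Any 2 libraries of a CT16 group differed beyond counting error (ratios of chi-square to its degrees of freedom of 47.8 to 129). None was therefore a repeat deposit of another library of its own group. Libraries of different groups, such as WT library 8 and those of WT at CT8, were not compared in this way.

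Genes named are Cry1 and Cry2, the 12 largest rises and falls passing with and without library 8 (mean log2 CPM at least 1, groups not overlapping, model names left out), up to 5 members of each of 40 lists with the lowest adjusted p, and interaction genes by like conditions. Other list members named were chosen after their values were seen. The members and lists were chosen with earlier results of these data known. Some genes that these rules select are not reported here. Promoter windows were searched in Python 3.11.15.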

Additional observations from a re-analysis of the deposited data

Results flagged for a closer look

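Of 408 groups of 4 libraries (204 genes at CT16), 31 held 1 library far from the other 3 by Dixon's criterion, where chance gives about 1 in 20. Values are CPM.

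WT library 8 was the far one for Nat8f7 (0.0349, a single read), Cyp4a12b (6.38), Cyp7a1 (834), Acadvl (360.3), Hspa5 (215), Xbp1 (149.9), Xaf1 (12.9), Clec4g (14.6) and Cd74 (7.11). It was the low library for Cyp4a12b, a male-biased P450, for Acadvl, of fatty acid oxidation, and for the chaperone Hspa5 and the stress factor Xbp1, and the high one for the rest.

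WT library 6 was far from the others for Lepr (4.68), Pcp4l1 (4.32), Lpl (53.4), Mup3 (2318), Abcc4 (4.89), Pdk4 (3.56) and Hbb-bs (0.0360, a single read). It was low for Pcp4l1 and for Mup3, a major urinary protein. WT library 5 was high for Nfil3 (31.6) and WT library 7 for Saa3 (25.8).

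Among CryDKO libraries, library 14 was far for R3hdml (1.33), Pcx (1039), Slc27a5 (2692), Arg1 (1569) and Tnfaip3 (3.23), high in each. Library 12 was high for Cyp2j5 (297), Slc31a1 (183) and F11 (52.6) and low for Nr1d2 (57.6) and Pmvk (55.4). Library 11 was high for Brip1 (1.70) and low for Hspa5 (299), and library 13 was high for C1qa (26.9).

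The genotype difference at CT16 minus that at CT8 passed for 4 named genes in edgeR's test of the interaction: Sult5a1 (log2 2.98), Cyp2j9 (2.05), Tnfaip3 (-2.09) and Ppib (-1.72). None of these calls held in every fit that left out a library, since some of those fits called 0 genes.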

How the results depend on the processing

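The count at CT16 (2629 genes) stayed within 1.5 times under every alternative run, from 1790 with the CT16 libraries alone to 3262 in limma voom with quality weights. It ran from 1821 to 2348 when each CT16 library was left out. The split between higher and lower calls moved by over 10 percentage points with library size alone only (24.3% higher against 49.6%). Without WT library 8 the 1891 genes became 2979 in limma voom with quality weights. Leaving out a further library gave 1042 to 1995 genes, and the 3 lowest were without WT library 7 (1042), 5 (1107) or 6 (1137), where 2 WT libraries remained. The cause was not tested.

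The interaction (6 genes) was the count that depended most on the settings: 134 in DESeq2, 1 in limma voom, 961 in limma voom with quality weights, 0 with library size alone (edgeR; 6 with TMM and 1927 at an unadjusted p under 0.05) and 30 without the low-count filter. Leaving out single libraries gave 0 to 568, with 568 without WT library 8 and 0 without WT CT8 library 2 or 4, WT CT16 library 5 or CryDKO CT16 library 12 or 13. The cause was not tested. For the 204 genes of the lists and rankings, 2867 of 3260 alternative values kept direction and side of the threshold, 322 lost the call, 71 gained one and 0 reversed.

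No paired analysis was possible because the columns carry running numbers over the whole series and no replicate numbers. With 4 libraries a group and 1 of them apart, changes below about the size of the spread were not detectable, and a miss does not show equality. The median of a list turned sign with library size alone for nucleotide excision repair (-0.14), cholesterol synthesis (-0.05), sinusoidal endothelium (-0.15) and erythroid markers (-0.08). It also turned sign when some single library was left out for those 4 lists and the glucocorticoid, gluconeogenesis, platinum transport, bile acid, PPAR alpha, complement, periportal and cell division lists.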

Other observations

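Hepatocyte zonation genes of the area around the central vein included rises. Of 17 tested pericentral genes 3 rose and 0 fell with all libraries, and 2 rose and 0 fell without library 8 (median log2 change 0.39). List counts in this section stand beside 9.0% and 9.15% of all genes, or 5.98% and 6.89% without library 8. Rhbg, an ammonium transporter, was at 8.54, 4.53, 8.71 and 4.11 CPM in WT and 20.5, 17.2, 12.3 and 20.2 in CryDKO and rose by 1.44 ± 0.31 (adjusted p = 0.00484 in edgeR's test). Glul, glutamine synthetase, was at 942, 398, 981 and 609 CPM in WT and 1239, 1245, 1404 and 1621 in CryDKO without overlap. Its log2 change of 0.91 ± 0.28 passed with library 8 (adjusted p = 0.0307) and not without WT library 6 or 8 or CryDKO library 13 or 14 (adjusted p = 0.0615 to 0.0948). Cell division genes had 1 rise and 0 falls of 19, and 0 and 1 of 21 without library 8. Heat shock and cold-inducible genes had 1 rise and 0 falls of 16, and 0 calls without library 8.

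Plasma proteins changed singly. F11, coagulation factor XI, was at 98.5, 72.3, 76.2 and 78.6 CPM in WT and 39.4, 52.6, 39.9 and 37.9 in CryDKO without overlap (log2 change -0.94 ± 0.18, adjusted p = 0.00189). Cfb, complement factor B, rose by 0.63 ± 0.17 (adjusted p = 0.0163), and the complement and coagulation list had 2 rises and 1 fall of 27 (1 and 1 without library 8). Apom, an apolipoprotein that carries sphingosine 1-phosphate, was at 212, 252, 181 and 171 CPM in WT and 317, 319, 326 and 310.2 in CryDKO and rose by 0.64 ± 0.15 (adjusted p = 0.00581). The 21 apolipoproteins and lipases had 2 rises and 2 falls (1 and 2 without library 8). Nmnat3, of NAD synthesis, fell by a log2 change of -0.69 ± 0.16 (adjusted p = 0.00633), and NAD metabolism had 0 rises and 2 falls of 20 (0 and 1 without library 8), with 2 higher and 2 lower at an unadjusted p under 0.05 in edgeR and 0 and 2 calls in DESeq2. Heme and iron genes had 1 rise and 2 falls of 25 (1 and 0 without library 8), and 6 and 2 in DESeq2.

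Markers of rarer cells were near the limit of counting. T and NK cell markers (1 of 10 tested) and neutrophil markers (4 of 8) had 0 calls in edgeR and in DESeq2, and 0 at an unadjusted p under 0.05. B cell markers (3 of 7) had 0 calls with all libraries, 1 rise without library 8 and 2 in DESeq2, and summed to 5.48 to 10.9 CPM in WT and 12.0 to 25.5 in CryDKO. Of 3 tested erythroid markers, Hbb-bs passed as higher with 0, 1, 0 and 0 reads in WT and 10, 2, 1 and 15 in CryDKO, so no fold is given, and the erythroid sum was 35.0 to 57.2 CPM in WT and 18.9 to 48.1 in CryDKO. Mpo (neutrophils), Slc4a1 (erythroid cells) and Prss1, Prss2, Cpa1, Pnlip and Ins2 (pancreas) had no read in the 8 libraries. Cela2a, an elastase of the pancreas, was at 0.454, 0.791, 0.441 and 1.05 CPM in WT and 2.35, 1.64, 2.17 and 2.97 in CryDKO and rose by 1.72 ± 0.42 (adjusted p = 0.00854). Cytosolic ribosomal protein genes summed to 12185 to 19863 CPM in WT and 15272 to 19238 in CryDKO.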
